A study of Homo sapiens with 8 samples.

Results

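Integrins, laminin chains, the hyaluronan receptor CD44 and a set of focal adhesion adaptors were followed in RNA of CAKI1, a line of human renal carcinoma cells. The genes were chosen by symbol from the deposited table, and 36 of its 16782 genes fitted the choice. They were 12 integrin alpha chains, 6 integrin beta chains and CD44 as receptors (19 genes), 11 laminin chains as ligands (5 alpha, 3 beta and 3 gamma), and the 6 adaptors PTK2, ILK, TLN1, VCL, PXN and ZYX. Of these, 4 control samples were left unstimulated and 4 samples received iron-loaded holo Lcn-2 (hLcn-2) at 5 µg/mL for 24 h, and cells of both groups had been kept without serum for 24 h before. The samples carry the numbers 1 to 4 in each group. The labels do not say whether the numbers stand for separate cultures, so p-values measure the spread between these samples. In models that include the number, they measure the spread of the differences within numbers.

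Integrins are receptors made of an alpha and a beta chain that span the membrane, bind matrix proteins outside and hold the actin cytoskeleton inside. Laminins are trimers of an alpha, a beta and a gamma chain and form the sheet of the basement membrane on which epithelial cells such as those of the renal tubule rest. Talin, vinculin, paxillin, zyxin, integrin-linked kinase and focal adhesion kinase gather at the inner face of a clustered integrin, and CD44 binds hyaluronan and is tied to actin through ezrin and its relatives.

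The values were normalized counts on the CPM scale, that is, reads scaled to a common library size. The 3′ library gives a single read per captured transcript end, so counts were compared between genes without division by length. Differences between genes in capture or in overlap with other genes at the transcript end were not corrected for, which limits such comparisons. Reads recovered from these values, after the authors' collapse by UMI (a tag of each molecule) and counting to genes, summed to 1501563 to 13953090 per library. The worth of 3 reads, used here as the limit of detection, lay between 0.211 and 1.98 CPM. The labelled cell type was checked against markers. Of 9 renal epithelial markers, 7 were among the genes analysed, with summed levels of 517 to 635 CPM in controls and 541 to 657 CPM after hLcn-2. PAX8, a transcription factor of the renal epithelium, lay between 201 and 245 CPM, and with CA12 and KRT18 it made up most of these sums. CDH16 lay between 1.58 and 10.8 CPM, and KRT19 and CA9 were not among the genes analysed. The mesenchymal markers VIM, CDH2, FN1 and S100A4 were all found, with sums of 2168 to 2871 CPM in controls and 2483 to 3143 CPM after hLcn-2. Of 6 leukocyte markers only CD14 was among the genes analysed, at no more than 1.59 CPM, and of 5 endothelial and 4 platelet markers none was. Of 7 fibroblast and muscle markers 2 were, COL1A1 and MYH11, with sums of 4.94 to 10.5 CPM in controls and 3.95 to 7.21 CPM after hLcn-2.

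All 36 genes passed the expression filter of at least 1 CPM in at least 2 samples. Their levels spanned from under 1 CPM for ITGA11 and ITGA7 to 672 ± 77.7 (SD, n = 4) CPM for LAMB1 in control cells, and 28 of them had a mean of at least 10 CPM. Among the integrin alpha chains, ITGA3, which pairs with ITGB1 to bind laminin, took 32.4% ± 0.270 (SD, n = 4) of the summed counts of its class in controls, and it took 31.8% ± 2.23 (SD, n = 4) after hLcn-2. ITGAV, the alpha chain of receptors for RGD-bearing ligands, took 29.7% ± 4.29 (SD, n = 4) and 30.3% ± 4.73 (SD, n = 4). The order of ITGA3 and ITGAV was within their spread. They were followed by the collagen receptor chains ITGA2, with 12.1% ± 3.56 (SD, n = 4) in controls, and ITGA1, with 8.68% ± 2.46 (SD, n = 4). The laminin-binding chain ITGA6, the ITGAE chain and the fibronectin receptor chain ITGA5 each took between 3.04% and 7.30% in every sample. ITGAX, a chain known from myeloid cells, was measured at 17.9 ± 3.19 (SD, n = 4) CPM in controls, and its partner ITGB2 at 12.4 ± 2.30 (SD, n = 4) CPM. ITGA4, ITGA2B, ITGA7 and ITGA11 stayed at or below 3.10 CPM in every sample.

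Among the integrin beta chains, ITGB1, ITGB5 and ITGB8 together made up the bulk of the counts. ITGB1, the partner of most alpha chains, took 39.8% ± 7.76 (SD, n = 4) of the class in controls, and ITGB5, which binds vitronectin together with ITGAV, 31.3% ± 3.99 (SD, n = 4). ITGB8, which pairs only with ITGAV and is known as an activator of latent TGF-beta, took 20.5% ± 6.75 (SD, n = 4). ITGB3 was at 29.6 ± 11.9 (SD, n = 4) CPM in controls. ITGB4, the hemidesmosome chain that pairs only with ITGA6, was at 22.7 ± 6.34 (SD, n = 4) CPM, below its partner ITGA6 at 45.6 ± 11.0 (SD, n = 4) CPM.

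The laminin chains were dominated by LAMB1 and LAMC1. LAMB1 took 96.9% ± 0.888 (SD, n = 4) of the beta chain counts in controls, and LAMC1 92.7% ± 2.90 (SD, n = 4) of the gamma chain counts. The alpha chain counts were spread over LAMA5 (39.9% ± 6.53, SD, n = 4), LAMA3 (33.0% ± 6.16, SD, n = 4) and LAMA1 (19.0% ± 6.21, SD, n = 4), of which the shares of LAMA5 and LAMA3 overlapped between samples. The sum of the alpha chains, 198 ± 58.3 (SD, n = 4) CPM, was close to that of the gamma chains, 224 ± 54.9 (SD, n = 4) CPM, whereas the beta chains summed to 694 ± 79.4 (SD, n = 4) CPM. LAMA3 and LAMB3, chains of the laminin that anchors hemidesmosomes, were at 63.0 ± 7.61 and 7.27 ± 3.57 (SD, n = 4) CPM in controls. After hLcn-2 they were at 65.5 ± 10.5 and 7.79 ± 3.34 (SD, n = 4) CPM, which differed by less than the spread of the controls.

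**Figure D1:**
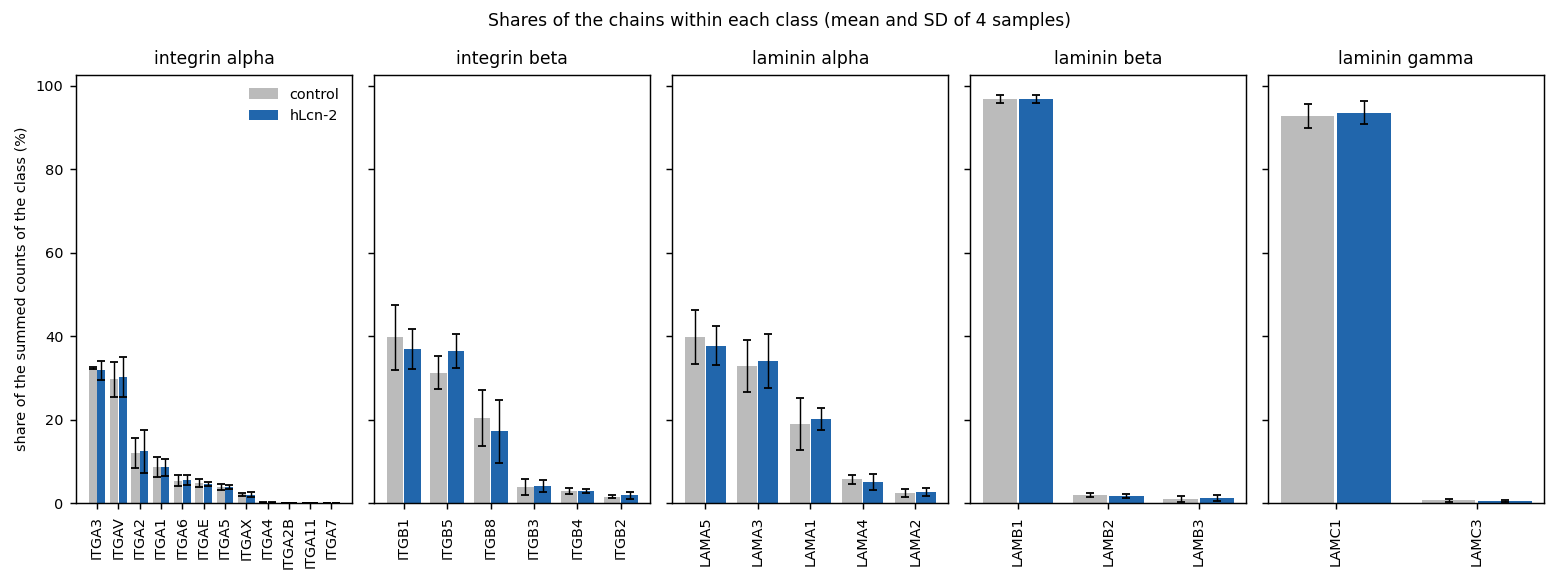
Share of the chains drawn in the summed normalized counts of its class (%), as mean and SD of the 4 control (grey) and 4 hLcn-2 (blue) samples, for integrin alpha and beta chains and laminin alpha, beta and gamma chains. ITGA3 and ITGAV lead the alpha chains, ITGB1, ITGB5 and ITGB8 the beta chains, and LAMB1 and LAMC1 take over 90% of their classes in both groups, with error bars that overlap between the groups.

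Whether hLcn-2 changed these genes was asked with limma on log2(normalized count + 1), fitted on all 15593 genes that passed the filter. Without the replicate number in the model, 0 of the 36 genes passed an adjusted p-value of 0.05 (limma, Benjamini-Hochberg adjustment over all genes tested), as did 0% of all genes tested. With an unadjusted p-value of at most 0.05 as the limit, limma, edgeR and DESeq2 without the number each found 0 of the 36 genes, beside 2.28%, 2.08% and 1.82% of all genes. With the replicate number as a block, 1 of the 36 genes passed in limma, ITGB8, beside 0.282% of all genes tested (0.0641% called lower), and it was lower after hLcn-2. On the recovered reads, the edgeR quasi-likelihood test that included the block also called 1 of them, again ITGB8, beside 1.49% of all genes (0.372% called lower). Without the block, edgeR and DESeq2 called 0 of them and 0% of all genes. The block matters because same-numbered samples deviated together from their group means. With the block and no adjustment, 3 of the 36 genes had a limma p-value of at most 0.05, ITGB8, ITGB1 and LAMB1, all lower after hLcn-2, beside 12.2% of all genes tested (5.53% lower). For edgeR these were 2 genes, ITGB8 and ITGB1, beside 13.4% of all genes (5.32% lower). Both counts are near the background.

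ITGB8 (ENSG00000105855, chromosome 7 from 20330702 to 20415754, plus strand, GRCh38, 14 exons in its canonical transcript) had normalized counts of 137, 106, 236 and 159 CPM in controls 1 to 4, and of 107, 76.9, 186 and 106 CPM in hLcn-2 samples 1 to 4. Each hLcn-2 sample was below the control of its number, yet the groups overlapped, and the samples numbered 3 were the highest of both groups. The means were 159 ± 55.7 (SD, n = 4) CPM in controls and 119 ± 46.9 (SD, n = 4) CPM after hLcn-2, a log2 fold change of -0.43, or -25.9% in the geometric mean. The standard error was 0.28 without the block and 0.081 with it, and the adjusted p-value 0.9999 and 0.0476 (limma). The edgeR quasi-likelihood test with the block gave an adjusted p-value of 0.0175. Over the 8 samples without their numbers, the exact permutation test (two-sided) gave p = 0.286. Within the same-numbered pairs the log2 differences were -0.36, -0.45, -0.34 and -0.58. The call was lost in limma when any pair was left out (adjusted p between 0.0658 and 0.238), with log2 fold changes between -0.46 and -0.38, and edgeR lost it only without the samples numbered 2 (adjusted p = 0.136). When all libraries were thinned to the reads of the shallowest, the adjusted p-value of limma with the block was 0.178 in the first of 5 draws and between 0.0455 and 0.0836 in the other draws. Without the block, the log2 fold change ran from -0.67 without hLcn-2 sample 3 to -0.22 without control 3. Over 16 settings that kept the block, the call held in 7, and the log2 fold change was between -0.56 and -0.37.

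ITGAV, the partner of ITGB8, had 249 ± 39.3 (SD, n = 4) CPM in controls and 247 ± 36.2 (SD, n = 4) CPM after hLcn-2. Its log2 fold change was -0.0080, with a 95% interval of -0.17 to 0.15 with the block, so that a change as large as that of ITGB8 lies outside it. The share of ITGB8 in the beta chain counts was lower after hLcn-2 in 4 of 4 pairs, from 15.8% to 12.9%, from 15.3% to 11.9%, from 29.8% to 28.3% and from 21.0% to 16.1% in numbers 1 to 4. The share of ITGB5, another partner of ITGAV, was higher in each pair and averaged 31.3% ± 3.99 (SD, n = 4) in control and 36.5% ± 4.17 (SD, n = 4) in hLcn-2 samples. These shares sum to a fixed total, so a lower share of a chain raises the others. In CPM, ITGB5 was at 244 ± 48.0 (SD, n = 4) in control and 257 ± 63.0 (SD, n = 4) in hLcn-2 samples. It gave a log2 fold change of 0.068 with a 95% interval of -0.13 to 0.27 with the block (limma).

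ITGB1 (ENSG00000150093, chromosome 10 from 32887273 to 33005792, minus strand) had 373, 339, 258 and 259 CPM in controls 1 to 4 and 306, 276, 204 and 246 CPM in hLcn-2 samples 1 to 4. It was lower after hLcn-2 within each pair, while the groups overlapped. The log2 fold change was -0.25, with a standard error of 0.17 without the block and 0.075 with it. The 95% interval with the block was -0.41 to -0.082, and limma gave an adjusted p-value of 0.9999 without the block and of 0.206 in the blocked model. With single samples left out and no block, the change ran from -0.33 without hLcn-2 sample 1 to -0.14 without hLcn-2 sample 3. ITGB1 did not pass the threshold over all genes, and the exact permutation test (two-sided) gave p = 0.229.

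LAMB1 (ENSG00000091136, chromosome 7 from 107923799 to 108003213, minus strand) took most of the laminin beta chain counts. These are counts of RNA, and laminin trimers were not measured in them. LAMB1 had 672, 574, 764 and 679 CPM in controls 1 to 4 and 614, 489, 706 and 608 CPM after hLcn-2. Each hLcn-2 sample was again below its same-numbered control, and the groups overlapped. The log2 fold change was -0.16 (95% interval -0.31 to -0.0099 with the block), and limma gave an adjusted p-value of 0.9999 without the block and of 0.376 in the blocked model. It did not pass the threshold, and without the block it ran from -0.24 without hLcn-2 sample 3 to -0.061 without hLcn-2 sample 2. VCL and TLN1, which encode vinculin and talin, were lower in each pair as well, and are described with the adaptors.

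Because ITGB8, ITGB1 and LAMB1 had the smallest p-values among the 36 genes and were lower in every pair, the sequences around their starts are shown, from RefSeq (GRCh38.p14), each from 250 bases before to 50 bases after the start of the transcript. Capitals mark matches on either strand to the GC box (GGGCGG), the CCAAT box (CCAAT), the TATA box (TATAAA), the cAMP response element (TGACGTCA), the AP-1 site (TGANTCA), the amino acid response element (TGATGNAA) and the TEAD site (GGAATG). ITGB8 lies at chr7:20330650-20330949 (plus strand), ITGB1 at chr10:32958181-32958480 (minus strand) and LAMB1 at chr7:108003112-108003411 (minus strand).
ITGB8: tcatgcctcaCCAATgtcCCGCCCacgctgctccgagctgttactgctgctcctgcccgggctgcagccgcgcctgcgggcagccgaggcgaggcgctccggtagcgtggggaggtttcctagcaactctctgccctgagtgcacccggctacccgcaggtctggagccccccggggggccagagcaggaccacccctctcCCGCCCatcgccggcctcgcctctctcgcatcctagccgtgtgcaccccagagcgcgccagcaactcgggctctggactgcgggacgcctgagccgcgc
ITGB1: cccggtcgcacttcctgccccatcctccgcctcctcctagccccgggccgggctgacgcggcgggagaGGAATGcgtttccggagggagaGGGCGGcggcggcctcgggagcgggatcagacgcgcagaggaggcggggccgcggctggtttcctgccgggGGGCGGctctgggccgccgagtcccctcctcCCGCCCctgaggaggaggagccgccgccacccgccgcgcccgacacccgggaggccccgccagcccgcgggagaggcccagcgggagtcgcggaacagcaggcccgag
LAMB1: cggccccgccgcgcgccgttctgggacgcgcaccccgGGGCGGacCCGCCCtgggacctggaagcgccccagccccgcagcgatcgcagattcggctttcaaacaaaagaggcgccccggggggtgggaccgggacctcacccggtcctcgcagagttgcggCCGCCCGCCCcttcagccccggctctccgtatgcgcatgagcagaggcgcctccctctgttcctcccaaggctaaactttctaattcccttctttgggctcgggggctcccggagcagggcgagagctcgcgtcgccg
The ITGB8 window held 2 GC boxes and 1 CCAAT box, the ITGB1 window shown 3 GC boxes and 1 TEAD site, and the LAMB1 window 4 GC boxes, of which the last pair overlaps. RefSeq gives ITGB1 another start as well, and its window, chr10:32935509-32935808 (minus strand, not shown), held 0 GC boxes, 2 CCAAT boxes and 3 TATA boxes. GC boxes are in 45.0% of all 35116 windows of this length, CCAAT boxes in 34.6% and TEAD sites in 14.0%. Windows were found for 26 of the 36 genes, and 18 of these had a GC box in any of their windows. A gene can have more than 1 window, so these counts of genes and the shares of windows are unlike measures. The amino acid response element, which ATF4 can bind, was in a window of 1 of the 26 genes, ITGB5, and in 3.62% of all windows. A match describes letters only.

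**Figure D2:**
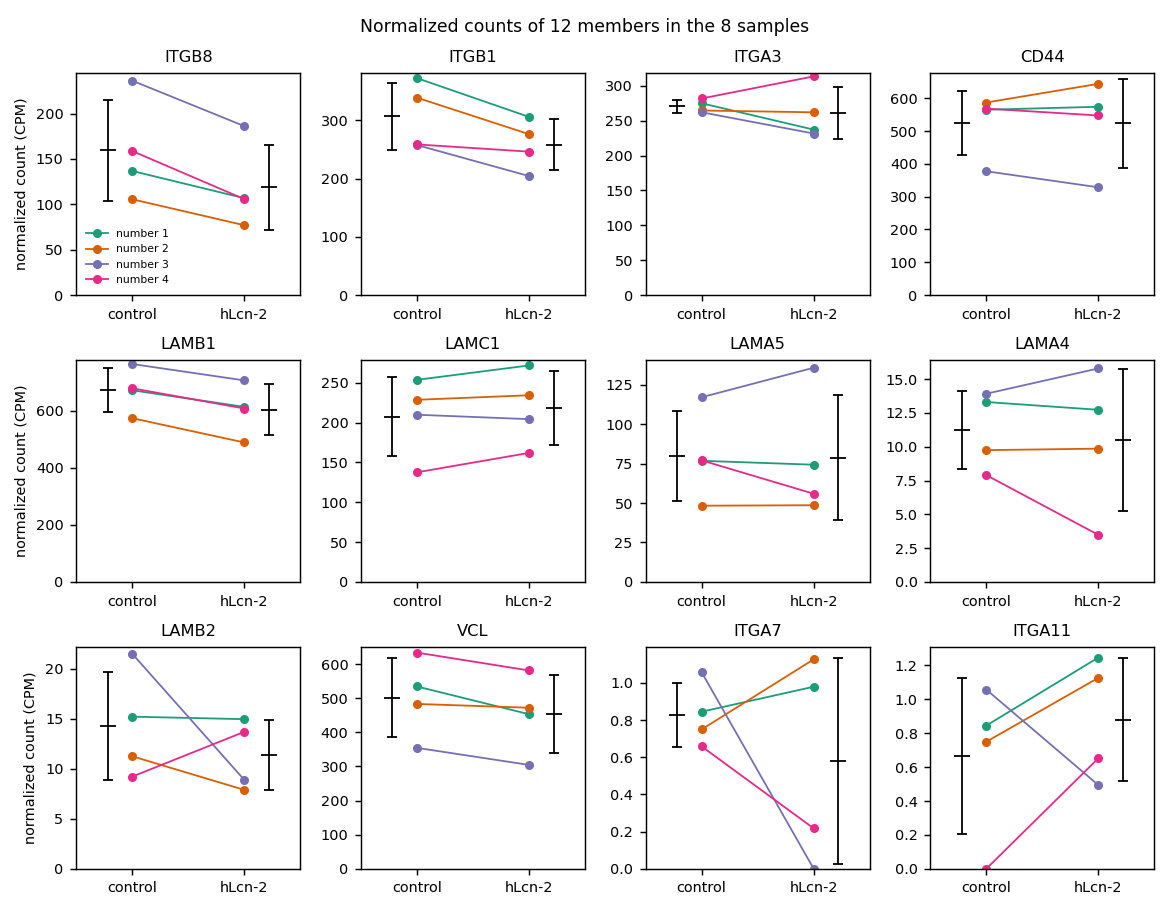
Normalized counts (CPM, axes from 0) of 12 of the genes in the 8 samples, with a colour for each replicate number and lines that join the control and hLcn-2 sample of a number. Black bars are the mean and SD of 4 samples. The 4 lines of ITGB8, ITGB1, LAMB1 and VCL all slope down, from starting points that differ between the numbers.

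The other receptors gave no call. CD44 (ENSG00000026508, chromosome 11 from 35138882 to 35232402) had 566, 588, 378 and 569 CPM in controls 1 to 4 and 575, 645, 329 and 548 CPM after hLcn-2. The samples numbered 3 were the lowest of both groups. The means were 525 ± 98.6 (SD, n = 4) and 524 ± 136 (SD, n = 4) CPM, and the log2 fold change of -0.024 had a 95% interval of -0.19 to 0.14 with the block (limma). ITGA3 (ENSG00000005884, chromosome 17 from 50055968 to 50090481) had 275, 265, 262 and 282 CPM in controls and 237, 262, 232 and 314 CPM after hLcn-2. The log2 fold change was -0.063 with a 95% interval of -0.24 to 0.11 with the block. In limma without the block it was -0.0088 when hLcn-2 sample 3 was left out and -0.15 when hLcn-2 sample 4 was. ITGA7 and ITGA11 were among the 8 genes with the smallest unadjusted p-values without the block, but they were at 0 to 12 and 0 to 14 reads per library. ITGA7 had 0.845, 0.750, 1.06 and 0.658 CPM in controls and 0.980, 1.13, 0 and 0.217 CPM after hLcn-2. ITGA11 had 0.845, 0.750, 1.06 and 0 CPM in controls and 1.25, 1.13, 0.494 and 0.652 CPM after hLcn-2. Both genes were thus at the limit of detection in the shallower libraries, and their fitted changes, which depend on the pseudocount, appear only in the plot of fold changes.

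Among the 19 receptors, 15 had a log2 fold change below 0 and 4 above, with a median of -0.036. The corresponding median was -0.071 in the 11 laminin chains (6 below 0 and 5 above) and -0.067 in the 6 adaptors (5 below 0 and 1 above). Without the block, these medians depended on single samples. The receptor median was -0.15 without control 3, -0.13 without hLcn-2 sample 2 and 0.012 without hLcn-2 sample 3. The adaptor median was -0.20 without control 3, -0.13 without hLcn-2 sample 4 and 0.014 without hLcn-2 sample 3. The laminin median was -0.15 without control 4 and between 0.033 and 0.073 without control 1, 2 or 3 or hLcn-2 sample 4. With the block and whole pairs left out, limma gave medians of -0.081 to -0.0042 for receptors and -0.14 to -0.067 for adaptors. For laminins they ran from -0.052 to 0.013. In edgeR with the same pairs left out they were -0.077 to 0.023, -0.081 to -0.045 and -0.093 to 0.0061 for receptors, adaptors and laminins. Over all 36 genes, 26 were below 0 (72.2%), beside 49.8% of all genes tested, and the median was -0.044 beside 0.00083. Of the 36 genes, 5 were lower in 4 of 4 pairs (ITGB8, ITGB1, LAMB1, VCL and TLN1), beside 10.9% of all genes, and 0 were higher in 4 of 4 pairs, beside 9.93% of all genes. The count of 5 is a share near that of all genes. In none of the 36 genes were the groups without overlap, as they were in 1.88% of all genes.

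Of the laminin chains, LAMC1, which is shared by most laminins, had 254, 229, 210 and 138 CPM in controls and 272, 234, 204 and 162 CPM after hLcn-2. Its log2 fold change was 0.082 (95% interval -0.084 to 0.25 with the block). LAMA5 had 76.8, 48.3, 117 and 77.0 CPM in controls and 74.3, 48.6, 136 and 55.9 CPM after hLcn-2. Its log2 fold change was -0.071 (95% interval -0.31 to 0.16 with the block). The samples numbered 3 were the highest of both groups for LAMA5. LAMB2, the beta chain of the mature glomerular basement membrane, had 15.2, 11.3, 21.5 and 9.22 CPM in controls and 14.96, 7.89, 8.89 and 13.7 CPM after hLcn-2. LAMA4, a chain known from vessel walls and mesenchyme, had 13.3, 9.75, 13.9 and 7.90 CPM in controls and 12.7, 9.86, 15.8 and 3.48 CPM after hLcn-2. The log2 fold changes of LAMB2 and LAMA4 were -0.29 and -0.22, with 95% intervals with the block of -0.78 to 0.20 and -0.65 to 0.22. The change of LAMB2 was carried by the samples numbered 3, without which it was 0.013 in limma with the block, and that of LAMA4 by those numbered 4, without which it was 0.042.

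Of the adaptors, VCL (ENSG00000035403, chromosome 10 from 73995193 to 74121363), which joins talin to actin, was the most abundant. It had 535, 483, 355 and 634 CPM in controls 1 to 4 and 453, 472, 305 and 582 CPM after hLcn-2. Its log2 fold change was -0.15 (95% interval -0.31 to 0.0012 with the block). Here limma gave an adjusted p-value of 0.9999 without the block and of 0.418 in the blocked model, and its log2 differences within pairs ran from -0.24 to -0.034. TLN1, the talin that binds the tail of beta chains, had 218 ± 46.1 (SD, n = 4) CPM in controls and 206 ± 46.4 (SD, n = 4) CPM after hLcn-2. PTK2, the focal adhesion kinase, had 91.4 ± 3.48 (SD, n = 4) and 88.9 ± 11.4 (SD, n = 4) CPM. PXN had 57.1 ± 14.3 and 58.3 ± 18.5 (SD, n = 4) CPM, and ZYX 37.8 ± 12.3 and 33.4 ± 8.82 (SD, n = 4) CPM. These differences were smaller than the spread between samples, which includes the differences between numbers. For TLN1 the log2 fold change was -0.087 (95% interval -0.25 to 0.072 with the block). Its log2 differences within pairs 1 to 4 were -0.17, -0.045, -0.11 and -0.028. ILK, which encodes integrin-linked kinase, had 3 to 17 reads per library and a mean of 1.45 CPM in controls and 1.32 CPM after hLcn-2. The last 500 nt of its canonical transcript are overlapped over 100% of their length by exons of TAF10 on the opposite strand (GENCODE 44), and the sources used here do not say whether reads were counted by strand or how reads in more than a single gene were treated. The part of this overlap in the low count of ILK was not tested. Smaller overlaps on the opposite strand touch the last 500 nt of PXN (25.4%), ZYX (9.6%) and ITGA7 (8.8%), and none was found for the other 32 genes.

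**Figure D3:**
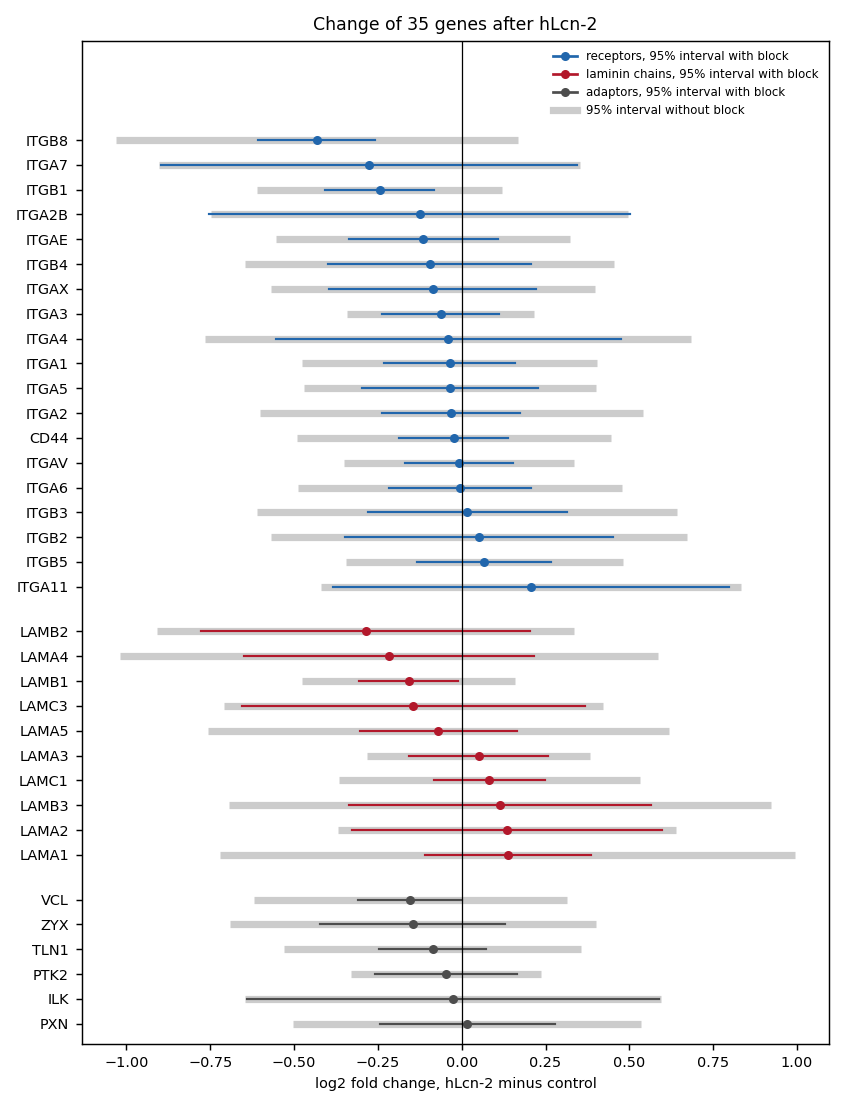
Log2 fold change (hLcn-2 minus control) of 35 of the 36 genes, ordered within receptors, laminin chains and adaptors. Points and thin lines are the limma estimate and its 95% interval with the replicate block, and grey bars the interval without it. Only the thin lines of ITGB8, ITGB1 and LAMB1 end below 0, and every grey bar crosses 0.

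The levels of these genes also differed between replicate numbers. The range between the means of the 4 numbers had a median of 0.74 on the log2 scale in the 36 genes and of 0.57 in all genes tested. LAMA1, LAMA5, LAMA4 and ITGB8 had wide ranges, with 1.71, 1.36, 1.33 and 1.21. For LAMA1, the values were 38.2, 28.5, 74.6 and 18.4 CPM in controls and 39.5, 29.9, 73.1 and 25.9 CPM after hLcn-2. The samples numbered 3 were the lowest in 16 of the 36 genes (44.4%, beside 34.0% of all genes) and the highest in 7 (19.4%, beside 31.0% of all genes). CD44, ITGA5, ITGA6, VCL and TLN1 were among those lowest in number 3, and ITGB8, ITGA1, LAMB1, LAMA5 and LAMA1 among those highest in it. What sets the numbers apart is not given in the labels.

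**Figure D4:**
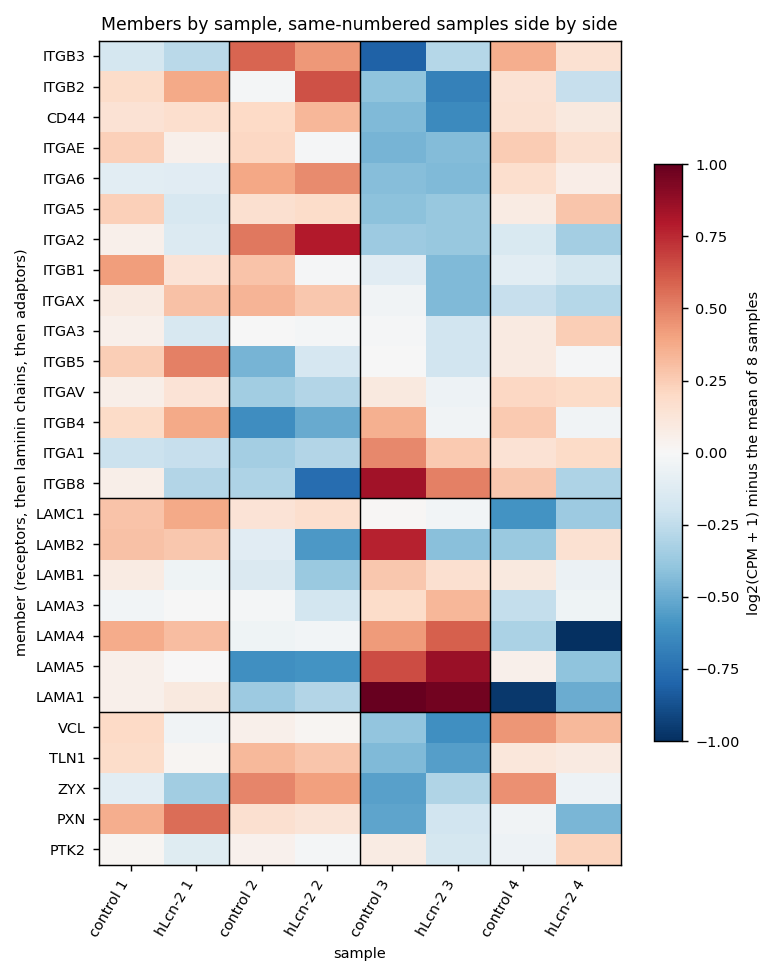
Deviation of log2(CPM + 1) from the mean of the 8 samples (red above, blue below, colour scale from -1 to 1) for 27 of the 28 genes with a mean of at least 10 CPM, with same-numbered samples side by side and black lines between numbers and between receptors, laminin chains and adaptors. Both samples of number 3 are red for LAMA1, LAMA5 and ITGB8 and are blue for CD44 and VCL.

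Further genes of adhesion were read from lists of other focal adhesion proteins, basement membrane proteins, other integrin ligands, the CD44 axis, and other laminin receptors with tetraspanins. The basement membrane list also held the intracellular plakins DST and PLEC. Of the 32, 15, 18, 13 and 12 genes of these lists that were tested, limma called 0 without and 0 with the block. The blocked edgeR test, which called 1.49% of all genes, called 0, 1, 1, 2 and 0 of them. Unadjusted p-values of at most 0.05 were given by limma without the block to 0, 1, 1, 1 and 0 of them, beside 2.28% of all genes, and with the block to 1, 3, 3, 2 and 2, beside 12.2%. The median log2 fold changes of the lists lay between -0.066 for the CD44 axis and 0.091 for other integrin ligands.

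In the basement membrane list, DST, a plakin that ties hemidesmosomes to keratin filaments, was called lower by edgeR with the block, with 515 ± 23.0 (SD, n = 4) CPM in controls and 408 ± 21.1 (SD, n = 4) CPM after hLcn-2. Its groups did not overlap, the log2 fold change was -0.34, and the adjusted p-value was 0.0286 in edgeR and 0.0620 in limma with the block. The perlecan gene HSPG2 and the collagen IV gene COL4A1 had log2 fold changes of -0.79 and 0.34, with adjusted p-values of 0.310 and 0.284 in limma with the block. HSPG2 had 4 to 29 reads per library, and control 4, at 9.88 CPM from 15 reads, stood above the other controls at 1.90 to 4.23 CPM. In limma without the block, leaving out control 4 gave log2 fold changes of -0.39 for HSPG2 and 0.20 for COL4A1. In the CD44 axis, EZR, which encodes ezrin, was called lower by the same test, with 227 ± 47.1 (SD, n = 4) CPM in controls and 179 ± 43.3 (SD, n = 4) CPM after hLcn-2. The change was -0.35 on the log2 scale, with adjusted p-values of 0.0344 in edgeR and 0.0743 in limma with the block. The EZR groups overlapped, at 163 to 274 CPM in controls and 124 to 230 CPM after hLcn-2. Blocked edgeR lost the EZR call without the samples numbered 1, 2 or 3 (adjusted p = 0.196, 0.183 and 0.119). The DST call was lost without the same numbers (adjusted p = 0.147, 0.203 and 0.0989 in blocked edgeR). The hyaluronidase gene HYAL1, also called lower, had 17.5 ± 2.85 (SD, n = 4) CPM in controls and 11.1 ± 2.87 (SD, n = 4) CPM after hLcn-2, without overlap between the groups. Its log2 fold change was -0.63, and its adjusted p-value was 0.0229 in edgeR and 0.0934 in limma with the block. Blocked edgeR lost the HYAL1 call without the samples numbered 1 or 2 (adjusted p = 0.113 and 0.219). The hyaluronan synthase gene HAS2 was at 1.01 ± 0.390 (SD, n = 4) and 0.616 ± 0.419 (SD, n = 4) CPM, near the limit of detection.

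Among other integrin ligands, ADAM9, a membrane protease whose outer part can bind integrins, was called higher by edgeR with the block, with 172 ± 30.4 (SD, n = 4) CPM in controls and 229 ± 35.5 (SD, n = 4) CPM after hLcn-2. The change was 0.41 on the log2 scale, and its adjusted p-value was 0.0304 in edgeR and 0.102 in limma with the block. The groups overlapped, and the log2 differences within pairs 1 to 4 were 0.80, 0.20, 0.26 and 0.39. Without the samples numbered 1 the change was 0.28 in both blocked fits, with adjusted p-values of 0.299 in edgeR and 0.337 in limma. The matricellular genes CTGF and THBS1 had log2 fold changes of -0.40 and -0.25, with adjusted p-values of 0.364 and 0.460 in limma with the block. Of the other focal adhesion genes, PARVA, PEAK1 and FYN had the smallest p-values in limma without the block, with log2 fold changes of 0.29, -0.22 and 0.36 and adjusted p-values of 0.486, 0.483 and 0.567 in limma with the block. SDC4, the syndecan of focal adhesions, had a log2 fold change of 0.28, limma with the block gave an adjusted p-value of 0.160, and its 4 pairs were all higher after hLcn-2. SDC3 and the tetraspanin gene CD9 had -0.26 and 0.36, with adjusted p-values of 0.538 and 0.373. In limma without the block, leaving out control 4 gave log2 fold changes of 0.12 for PARVA and -0.089 for SDC3. Leaving out hLcn-2 sample 1 gave -0.039 for CD9. DST, EZR, HYAL1 and ADAM9 did not pass the threshold without the block in either tool. Over the 16 settings that kept the block, their calls held in 3, 2, 3 and 1.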

How the data were processed

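RNA of 4 control and 4 hLcn-2-treated CAKI1 samples was analysed. The deposited values are a scaled signal, normalized counts on the CPM scale. The authors aligned UMI-tagged QuantSeq 3′ reads to GRCh38 with STAR, collapsed them by UMI, counted them with HTSeq and normalized them with edgeR, and the versions of STAR, HTSeq and edgeR and the annotation release are not given in the sources used here. Within 0.001 reads, 100.0% of 134256 values were whole multiples of the value of a single read, and reads were recovered by that step. A decimal comma in 1 cell was read as a point.

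Limma 3.58.1 (R 4.3.3, intensity trend, two-sided) was run on log2(normalized count + 1). Genes needed 1 CPM or more in 2 or more samples, which 15593 met, and Benjamini-Hochberg adjustment ran over all of these. Alternatives were the replicate block, pseudocounts 0.1 and 5, other filters and normalizations, no trend, edgeR 4.0.16 and DESeq2 1.42.0 on recovered reads, thinned reads, and left-out samples. Models were tested on simulated reads that carried replicate-number effects taken from these data and the same extra spread for all genes. That test cannot show how firm the blocked calls are in the real data. Whether the numbers in the labels pair the samples was checked by correlating deviations from the group means over all genes, which gave 0.31 to 0.61 in 4 same-numbered pairs (mean 0.50) and at most 0.23 in others. Members, lists and named genes (called in any fit, the 8 smallest p-values, the most abundant of each class, groups without overlap, and the 3 smallest p-values of each list) were chosen with earlier results of these data known. ITGAV, ITGB5, LAMA1 and TLN1 were described after their values were seen. Positions are from GENCODE 44. Values of 1 of the 36 genes are counted in the summaries but not reported here.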

Additional observations from a re-analysis of the deposited data

Results flagged for a closer look

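Among 72 sets of 4 samples (36 genes in each group), 4 had a sample apart from the rest, and chance alone would give about 3.6. The measure is the distance of that sample from its neighbour divided by the range. For CD44 it was 0.895 in control 3, which had 378 CPM against 566 to 588 CPM in the other controls. For ITGAE it was 0.927 in control 3, which had 28.0 CPM against 45.4 to 46.8 CPM. For ITGA2 it was 0.852 in hLcn-2 sample 2, which had 169 CPM against 74.5 to 88.5 CPM. For ILK it was 0.836 in hLcn-2 sample 4, which had 0.870 CPM, or 4 reads, against 1.41 to 1.51 CPM. No cause was tested.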

How the results depend on the processing

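The direction of ITGB8, ITGB1, LAMB1 and ITGA3 held under all 33 alternatives (25 planned and 8 chosen after seeing the data), but with samples left out their sizes ran from -0.67 to -0.22, -0.33 to -0.14, -0.24 to -0.061 and -0.15 to -0.0088. The replicate block raised the genes called among all tested from 0 to 44 in limma, 45 with a pseudocount of 5, and 233 in edgeR, and the calls among the 36 genes from 0 to 1 in each. Without the samples of number 1, 2, 3 or 4, the blocked limma fit called 14, 3, 0 and 58 of all genes and 0 of the 36, and blocked edgeR called 66, 56, 125 and 221 of all and 1, 0, 1 and 1 of the 36. After thinning to the shallowest library with the block, 5 draws gave 2, 8, 9, 54 and 6 genes, with 1 of the 36 in the fourth draw only, so a call at this depth depended on the draw. The laminin median was 0.069, -0.17, 0.0079, -0.015 and -0.035 in the 5 draws. With single samples left out and no block, medians ran from -0.15 to 0.012 for receptors, from -0.15 to 0.073 for laminins and from -0.20 to 0.014 for adaptors. Small log2 fold changes turned sign. With single samples or pairs left out, they ran from -0.17 to 0.18 for CD44, -0.13 to 0.089 for ITGAV, -0.089 to 0.16 (0.17 in edgeR) for ITGB5, -0.45 to 0.18 for LAMA4, -0.37 to 0.13 for LAMA5, -0.56 to 0.013 for LAMB2, -0.10 to 0.22 for LAMC1, -0.31 to 0.024 for VCL and -0.039 to 0.60 (0.62 in edgeR) for CD9. Within these, pairs left out turned CD44 (0.034, and 0.037 and 0.0097 in edgeR), LAMA4 (0.042 and 0.033), LAMA5 (0.058 and 0.067), ITGB5 (-0.0091) and ITGAV (0.039, 0.043 and 0.018). LAMB2 turned as well, to 0.013 in limma with the block without the samples numbered 3. Without any sample left out, CD44 was at 0.0072 in edgeR, ITGAV at 0.0016 with recomputed TMM factors, 0.0019 in edgeR and 0.0062 in blocked edgeR, and LAMA5, LAMA4 and LAMC1 at 0.017, 0.025 and -0.035 in the second, the third and the fifth draw. The cause of these shifts was not tested. The worth of 3 reads in the shallowest library, 1.98 CPM, limits ITGA7, ITGA11, ITGA2B, ITGA4, ILK and LAMC3. Limits of detection cover counting error only.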
